A study of Bos taurus with 43 samples.

Results

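The 43 biceps brachii samples of this study, a muscle of the bovine forelimb, were divided into 2 sides of a plot of principal components. Groups 3 and 4 of that plot held 20 animals, and groups 1 and 2 held the other 23. The members were selected on the expression values of these same arrays, from which the study drew its 4 groups, so every gene measured here may have helped to draw the line between the sides. All differences between the sides are therefore given as a description, with no test, and the text says which genes did and which did not overlap. The 20 animals of groups 3 and 4 were the 4 labelled as suspected of corticosteroid treatment (S21, S54, S56 and S57) and 16 of unknown treatment status. Of these 16, animals 29, 39, 50, 52, 60, 61, 78, 79 and 81 lay in group 3 and animals 36, 37, 38, 49, 51, 58 and 76 in group 4. Groups 1 and 2 held the 18 negative controls and 5 animals of unknown status (263, 265, 266, 269 and 270). The study's results report 4 animals, with the same numbers but a P in place of the S, as positive by histology of the thymus and by mass spectrometry of urine. These are taken here to be the 4 suspected animals. The 25 commercial animals were mostly Charolais, Limousine or their crosses, taken at slaughter from several batches in a monitoring programme. The 5 controls named K were untreated Charolais and Limousine cross-breeds, and the 13 controls named C were untreated Holstein cattle, both from earlier experiments. No control lay in groups 3 and 4, so for the controls origin and side cannot be told apart.

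Each array carried the RNA of 1 animal. Values are normalized log2 signals of a probe, in which a difference of 1 is a 2-fold change, and 16354 of 21475 gene probes passed the filter on dim signals. Scanner software marks each spot as well above background or not, and for several dim genes the number of arrays on which it was well above background is given. Errors of differences are standard errors over the 20 and the 23 arrays, whose number limits the precision. That the samples were skeletal muscle was checked on genes that every skeletal muscle uses, which cannot tell biceps brachii from another muscle. ACTA1, skeletal muscle actin, had a log2 signal of at least 15.40 on every array, desmin (DES) of at least 15.66 and myoglobin (MB) of at least 16.92.

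Several arrays stood apart before any gene was compared. The share of spots well above background ran from 40.2% (animal 79) to 97.3% (animal 50) in groups 3 and 4, with a median of 71.9%, and from 62.3% to 79.2% in groups 1 and 2, with a median of 68.3%. Animals 29, 39, 52, 61 and 76, all of groups 3 and 4, had the lowest signals of the spike-in RNAs that are added to each sample. The study describes all animals as male, but ZFY, a gene of the Y chromosome, was at 2.84 to 4.53 on 11 arrays and at 5.47 to 7.26 on the other 32. These 11 were all 5 unknown animals of group 2 and 6 of the 7 of group 4 (not animal 76), so that they stood on both sides. Arrays of both sides shared 1 slide (animals 36 and 58 with 269) and 1 scan day (36 and 58 with 263, 265, 266, 269 and 270), out of 19 slides and 13 scan days. Counts without these arrays, and values within the shared scan day, follow with the results.

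HOX genes are transcription factors arranged in 4 clusters. Their order along each cluster follows the order of the body parts in which the embryo uses them, and adult tissues, muscle included, keep much of that pattern as a record of where they came from. In the limb, the genes at the 5′ end of the HOXA and HOXD clusters are used from the shoulder towards the foot. Muscle fibres in turn come in slow, oxidative types and fast, glycolytic types, which use different copies of the contractile and calcium-handling proteins and lean on different fuels. Both kinds of gene recur among those named here.

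Between the sides, 96 of the 16354 probes (0.587%) had ranges that did not overlap, so that every animal of one side was above every animal of the other. Of these, 46 (0.281%) were higher and 50 (0.306%) lower in groups 3 and 4. Nothing is read from these shares, because the sides were drawn on the same values. Of the 96 probes, 85 carried a gene symbol, for 82 different genes, and 11 were transcripts without a name, 9 of them higher and 2 lower in groups 3 and 4. Most of the larger differences overlapped all the same. The means of the sides differed at least 2-fold at 1627 probes, 741 higher (4.53%) and 886 lower (5.42%), of which 1539 had at least 1 array out of place. Conversely, 8 of the 96 differed by less than 2-fold. The median difference was 1.95 among the 46 higher probes (0.48 to 6.24) and -2.19 among the 50 lower (-0.68 to -7.69), against -0.03 over all probes tested.

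The gap between the ranges was usually narrow. It reached 1 on the log2 scale, a 2-fold gap, at 14 of the 96 probes and was under 0.1 at 24. Its median was 0.26 among the higher and 0.35 among the lower probes. Just inside the limit lay GALNT17, USP28 and PRDX1, with gaps of 0.0006, 0.0029 and 0.0070. Just outside it, RTN2, AK1 and LMF2 had gaps of -0.0011, -0.0041 and -0.0042, so membership at the limit turned on the position of a single array. A further 88 probes overlapped through 1 array alone and 150 through 2.

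**Figure D1:**
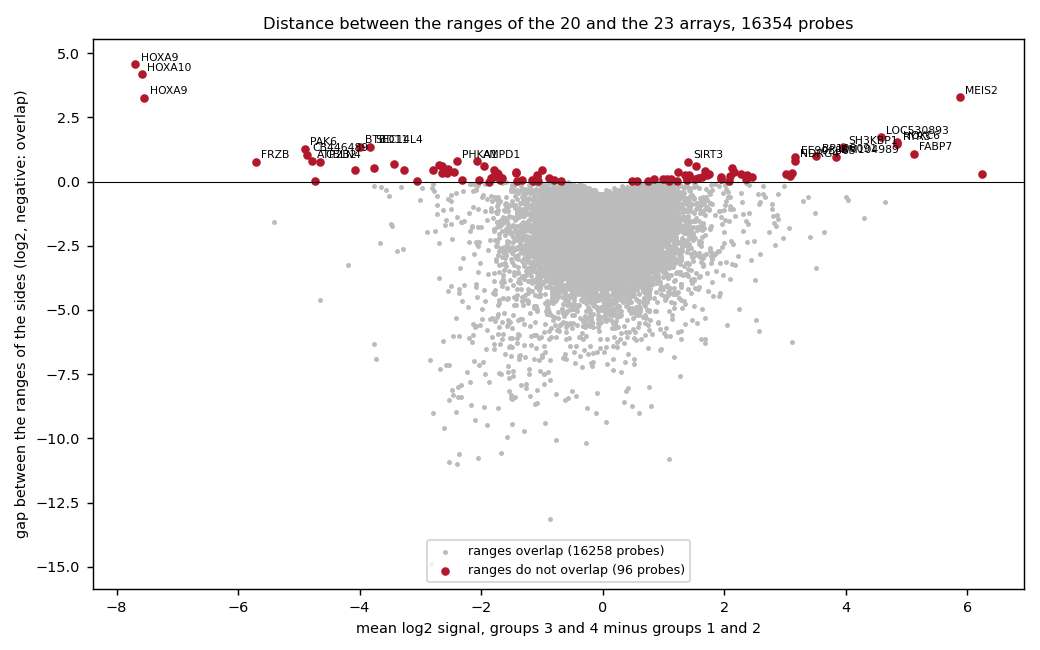
Each point is 1 of 16354 probes, with the difference of the mean log2 signals of the sides on the x axis and the gap between their ranges on the y axis, negative where the ranges overlap. The 96 red probes lie above 0, and HOXA9, HOXA10 and MEIS2 lie highest, with gaps of 3.27 to 4.56 for their 4 probes.

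The widest gaps of all belonged to the HOXA cluster. HOXA9, a 5′ HOXA gene, lay at probe A_73_119831 between 1.77 and 5.74 in groups 3 and 4 (median 3.34) and between 10.30 and 11.67 in groups 1 and 2 (median 11.11). Spots cleared the background on 4 of the 20 arrays against all 23, and the means differed by -7.69 ± 0.27. HOXA10, its neighbour in the cluster, ran from 1.22 to 5.96 (median 2.66) and from 10.13 to 11.17 (median 10.56), a difference of -7.58 ± 0.34, with 2 of 20 and all 23 arrays well above background. Both genes were thus bright in every control and in the 5 unknown animals of group 2, and near background in most of the others, with no array in between. A second HOXA9 probe, A_73_116160, differed by -7.55 ± 0.28 and did not overlap either, with 2 of the 20 arrays well above background. On dim arrays such levels, and the sizes of differences from them, are uncertain. The remaining HOXA9 probes each overlapped through 1 array. At A_73_101190, the 4 suspected animals (6.77 to 7.47) lay close below groups 1 and 2 (7.70 to 8.98), while the unknown animals of group 4 lay at 0.96 to 4.17, so this probe did not follow its neighbours. The fourth, A_73_120553, differed by -2.81 ± 0.24.

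HOXA11 and HOXA13, which lie further towards the 5′ end and are used in the forearm and foot, gave another pattern. HOXA11 was at 9.79 to 11.80 in the cross-breed controls and at 7.05 to 9.58 in the Holstein controls, but at 1.78 to 5.97 in the 5 unknown animals of group 2. In groups 3 and 4 it ran from 1.42 to 6.39. HOXA13 was at 8.49 to 10.26 in the cross-breed controls, at 6.44 to 7.87 in the Holstein controls, at 1.18 to 1.76 in the unknown animals of group 2 and at 1.31 to 4.43 in groups 3 and 4. Both genes therefore split the 18 controls from all 25 commercial animals, and the sides overlapped because the 5 unknown animals of group 2 lay with groups 3 and 4. Between those 5 animals and the cross-breed controls, a contrast that does not cross the sides, HOXA11 was well above background on 1 of the 5 arrays against 5 of 5, so the size of its difference is not given. HOXA13 was well above background on none of the 5 and was at least 41.9-fold lower. These 5 were placed in group 2 on the same plot, so this is a description. They shared no slide and no scanner with the cross-breed controls, and all 5 had less ZFY signal than every cross-breed control. HOXA7, a more central gene of the cluster, differed by -1.3 ± 0.11 and overlapped through 2 arrays. Towards the 3′ end the differences were smaller, 1.17 at HOXA4 and 0.77 at HOXA5, both with overlapping ranges.

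Some genes of the HOXC cluster went the other way. HOXC6, a central HOXC gene, lay between 9.73 and 10.82 in groups 3 and 4 (median 10.28) and between 3.18 and 8.20 in groups 1 and 2 (median 5.16), a difference of 4.85 ± 0.29. The highest values of groups 1 and 2 were those of the 5 unknown animals (6.78 to 8.20), and the cross-breed controls (3.18 to 4.77) were the lowest. HOXC6 thus did not take a single low level across groups 1 and 2. It was higher in the Holstein than in the cross-breed controls by 1.26 ± 0.26 (limma, adjusted p = 7.04e-04), but 2 of the 5 cross-breed arrays were well above background and with normexp the difference was under 2-fold, at 0.85 ± 0.22. The unknown animals of group 2 had a mean of 7.64 against 3.95 in the cross-breed controls. HOXC8 at probe A_73_110810 was found at 8.15 to 10.74 in groups 3 and 4 against 2.67 to 8.95 in groups 1 and 2, and the ranges met only through animal 265. The other HOXC8 probe differed by 3.50 ± 0.28 and overlapped through 2 arrays. A probe that the annotation gives as HOXC4 and the array's description as HOXC5 cleared the background on 19 of 20 arrays of groups 3 and 4 and on none of groups 1 and 2, where it was at least 2.62-fold lower. The other HOXC4 probe, A_73_110099, differed by -0.86 ± 0.30 and overlapped through 9 arrays. HOXC10, further towards the 5′ end, was lower in groups 3 and 4 (-2.08 ± 0.30) and overlapped through 5 arrays. HOXC9 differed by 0.21 ± 0.41 between the sides, but was well above background on none of the 5 cross-breed arrays. It was at least 5.96-fold higher than there in the Holstein controls (limma, adjusted p = 6.04e-09) and at least 5.14-fold higher in the unknown animals of group 2.

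**Figure D2:**
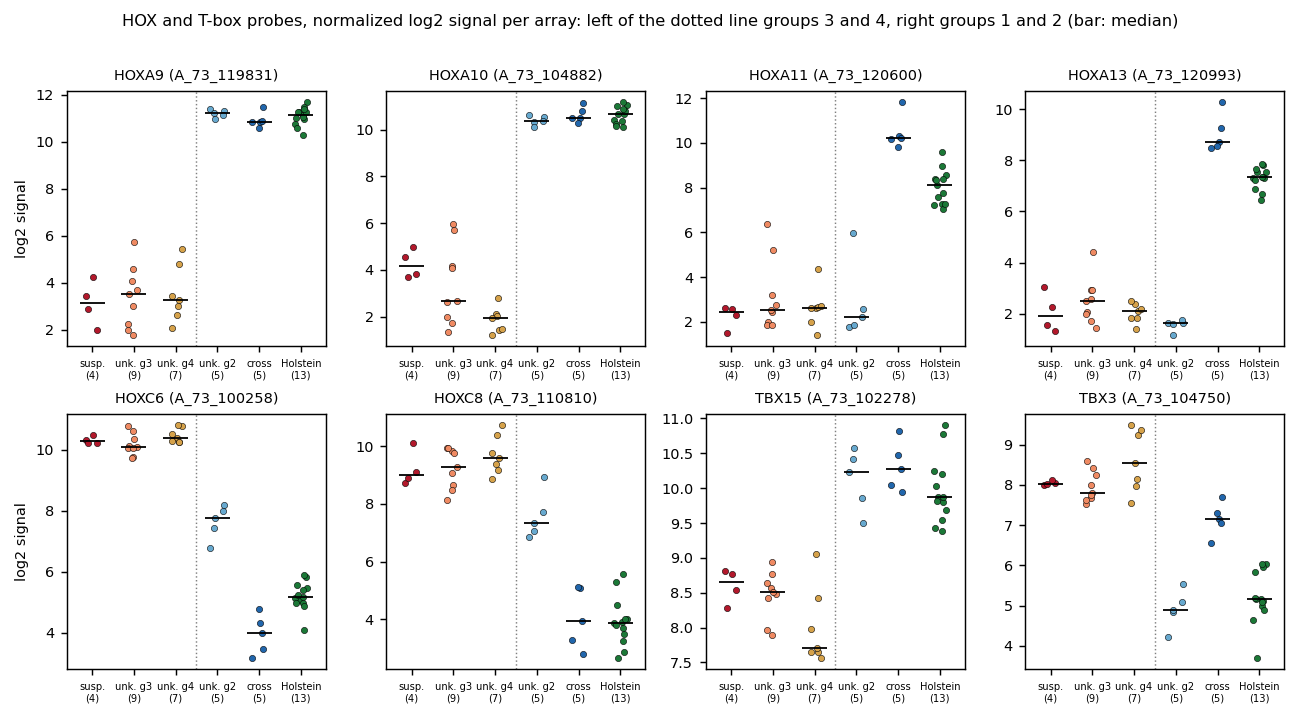
Normalized log2 signal (y axis) of 6 HOX and 2 T-box probes, 1 point per array and a bar at the median, for suspected animals (susp.), unknown animals (unk.) of groups 3 (g3), 4 (g4) and 2 (g2), cross-breed (cross) and Holstein controls; the dotted line parts the sides. HOXA9 and HOXA10 change at the line, whereas HOXA11 and HOXA13 are high only in the 18 controls and HOXC6 and HOXC8 take middle values in the unknown animals of group 2.

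Of the 44 HOX probes, 34 passed the filter. Their ranges did not overlap at 2 probes higher in groups 3 and 4 and at 3 lower, and 7 were at least 2-fold higher and 14 at least 2-fold lower, with a median difference of -0.55 against -0.03 over all probes. Over all probes, 0.281% were apart and higher, 0.306% apart and lower, 4.53% at least 2-fold higher and 5.42% at least 2-fold lower, and each list's counts stand beside these shares with nothing read from them. With normexp the HOX counts were 2 and 8 (median -0.17), and with loess on pairs 7 and 18 (median -1.12). By cluster, the median was -2.06 over 14 HOXA probes (3 apart, all lower), 3.08 over 7 HOXC probes (2 apart, both higher), 0.02 over 6 HOXB probes and -1.04 over 7 HOXD probes, with none apart in the last 2 clusters. HOXB4 (1.04) was the sole HOXB probe at least 2-fold different. In the HOXD cluster, HOXD9 (-1.71 and -1.49), HOXD1 (-1.25) and HOXD13 (-1.04) were lower with overlapping ranges. The same list without animals 29, 39, 50, 52, 61, 76 and 79, chosen after seeing the data, held 2 higher and 4 lower probes apart. All 16354 probes then held 59 and 74. Without the 11 arrays of low ZFY the list held 4 and 7, and all probes 122 and 123. Dropping arrays can only widen a gap.

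Among 55 probes of other genes of body position, 36 passed the filter, 1 was apart and higher, 1 was apart and lower, 5 were at least 2-fold higher and 4 lower, with a median of -0.14 that turned to 0.004 under scaling to the 75th percentile. MEIS2, a TALE homeobox factor that binds DNA together with HOX proteins and marks the part of the limb nearest the body, had the widest gap of the genes that were higher. It lay between 9.42 and 11.51 in groups 3 and 4 (median 10.52) and between 2.0 and 6.15 in groups 1 and 2 (median 4.97), with 15 of 23 arrays well above background. The difference was 5.87 ± 0.29, and within groups 1 and 2 MEIS2 was itself at least 1.70-fold higher in the Holstein than in the cross-breed controls (limma, adjusted p = 3.02e-04), where no array was well above background. Its relative MEIS1 differed by 0.30 between the sides. TBX15, a T-box factor of fast muscle fibres and of the trunk and limb skeleton, was found at 7.57 to 9.05 in groups 3 and 4 against 9.39 to 10.90 in groups 1 and 2 (-1.74 ± 0.14). TBX3, a T-box factor of the limb margins, was higher in groups 3 and 4 (2.63 ± 0.25) and overlapped only through K10 of the cross-breed controls. SHOX2, a homeobox factor of the upper limb, differed by -1.79, SIX2 by -1.42, PAX3 by 1.98 and LBX1 by 1.08, all with overlapping ranges. TBX4 (-0.31) and PITX1 (-0.17), which mark the hind limb, differed little, and TBX5, which marks the forelimb, did not pass the filter on dim signals.

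FRZB, a secreted decoy receptor that holds Wnt proteins away from their receptors, was the Wnt gene with the largest difference. It ran from 2.53 to 8.20 (median 4.81) in groups 3 and 4, with 11 of 20 arrays well above background, and from 8.97 to 12.67 (median 10.51) in groups 1 and 2, a difference of -5.71 ± 0.39. Each of the 3 label groups of groups 1 and 2 was high and each of the 3 of groups 3 and 4 was low. The unknown animals of group 4 were most spread out, from 2.53 (animal 76) to 8.20 (animal 49). The ligand WNT4 was lower too (-2.79 ± 0.24) and overlapped through 1 array, and the inhibitor SFRP4 differed by -1.56. WNT5A (1.3), the R-spondins RSPO2 (1.15) and RSPO3 (1.07) and the inhibitor SFRP2 (1.12) were higher with overlapping ranges. Over 37 of 47 Wnt probes that passed the filter the median was 0.09 (-0.02 without the 7 arrays named above for spike-ins or background), with none apart and higher, 1 apart and lower, 4 at least 2-fold higher and 5 lower. Frizzled receptors and the co-receptors LRP5 and LRP6 stayed within 2-fold.

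Several other genes were dim on most arrays of a side. PAK6, a serine/threonine kinase, ran from 1.70 to 6.0 in groups 3 and 4, well above background on 2 of 20 arrays, and from 7.27 to 8.84 in groups 1 and 2 (-4.90 ± 0.23). CBLN4, a secreted synapse protein, and ATP2B2, a plasma membrane calcium pump, were well above background on all 23 arrays of groups 1 and 2 and, with probe A_73_113566 for ATP2B2, on none of the 20. CBLN4 was at least 8.36-fold and ATP2B2 at that probe at least 10.9-fold lower in groups 3 and 4, and the second ATP2B2 probe (-3.76 ± 0.25, 2 of 20 arrays well above background) was apart as well. In such probes the dim side gives only a bound, since levels under background have no order. BTBD11 ran from 5.37 to 7.26 against 8.62 to 13.32 (-3.99 ± 0.31), and the 5 unknown animals of group 2 (12.31 to 13.32) stood above both control sets. SEC14L4, a lipid transfer protein, ran from 3.90 to 7.22 against 8.57 to 10.95 (-3.82 ± 0.25), but its second probe differed by -0.25 ± 0.16 and overlapped through 12 arrays. Of the higher genes, FABP7, a fatty acid binding protein known from glia, ran from 8.69 to 13.44 against 4.37 to 7.61 (5.12 ± 0.32). SH3KBP1, an adaptor in receptor endocytosis, ran from 11.11 to 13.58 against 6.45 to 9.77 (3.95 ± 0.25). The forkhead probe described as FOXG1B was found at 8.14 to 10.43 in groups 3 and 4, while in groups 1 and 2 it cleared the background on 6 of 23 and reached 7.86 in the Holstein control C20, a gap of 0.28. NDRG4, of the N-myc downstream regulated family, was higher by 3.16 ± 0.22, and GRB14, an adaptor that restrains the insulin receptor, by 3.12 ± 0.26.

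The remaining wide gaps belonged to genes of varied roles. TSC22D4, of a family of leucine zipper regulators, lay at 14.80 to 16.04 in groups 3 and 4 against 13.65 to 14.19 (1.54 ± 0.09). RCAN2, an inhibitor of the calcium-dependent phosphatase calcineurin, was apart at both of its probes (2.16 ± 0.17 and 2.07 ± 0.18). Higher too were FNDC4 (1.68 ± 0.11), BBS2 (1.23 ± 0.10), a subunit of a complex of the primary cilium, TM7SF2 (1.75 ± 0.14), an enzyme of sterol synthesis, and MSS51 (2.37 ± 0.18), a mitochondrial factor of muscle that the array's description calls ZMYND17. Lower were DMRT2 (-3.27 ± 0.25), a transcription factor of the embryonic muscle segments, ABAT (-2.79 ± 0.24), which breaks down the transmitter GABA, CXorf6 (-2.70 ± 0.22), DDIT4L (-2.55 ± 0.24), an inhibitor of growth signalling, and SMYD2 (-2.45 ± 0.16), a lysine methyltransferase. Among the 11 transcripts without a name, CB446489 lay at 4.88 to 9.39 against 10.44 to 13.74, BM104989 at 9.22 to 11.21 against 4.93 to 8.26, and BP108091 was at least 3.78-fold higher in groups 3 and 4.

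**Figure D3:**
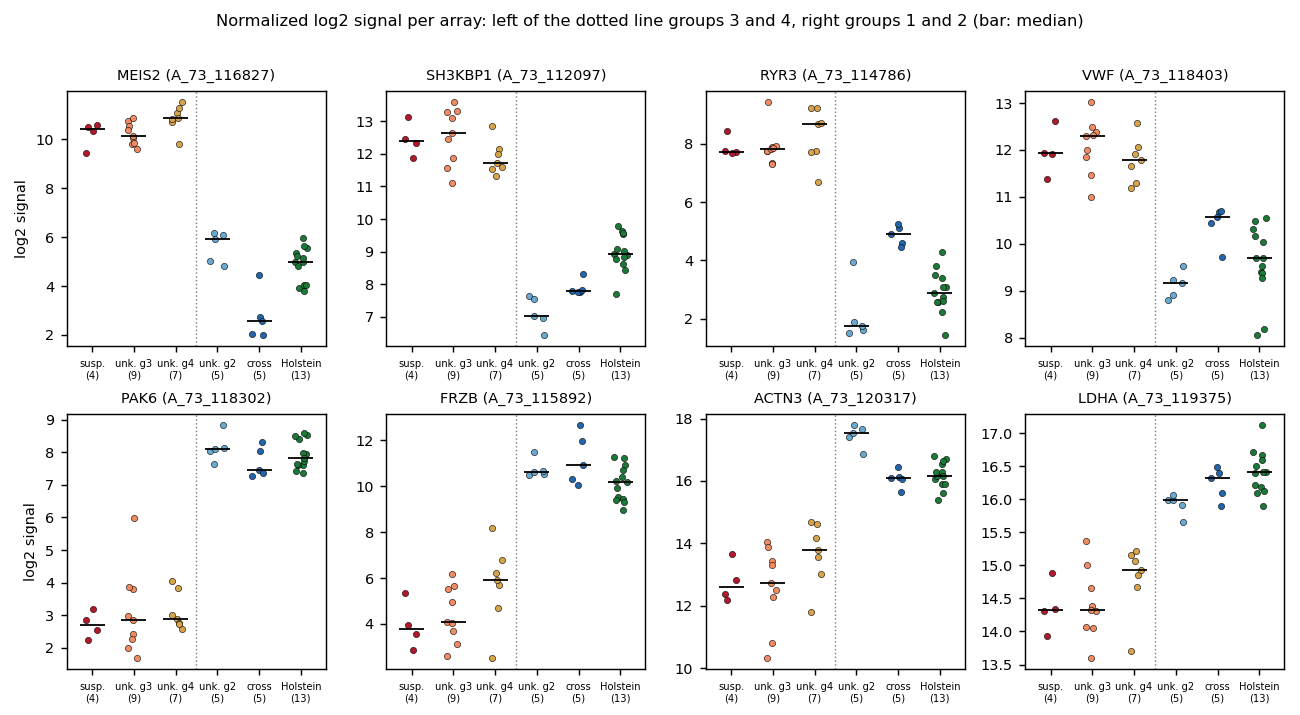
Normalized log2 signal (y axis) of 8 probes whose ranges do not overlap, 1 point per array and a bar at the median, for suspected animals (susp.), unknown animals (unk.) of groups 3 (g3), 4 (g4) and 2 (g2), cross-breed (cross) and Holstein controls; the dotted line parts the sides. MEIS2, SH3KBP1, RYR3 and VWF are higher and PAK6, FRZB, ACTN3 and LDHA lower in groups 3 and 4. LDHA and VWF come closest to overlapping, each with a gap of 0.29.

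Fast-fibre genes were lower in groups 3 and 4. Of 13 probes, 3 were apart and lower and none apart and higher, 9 were at least 2-fold lower and 1 at least 2-fold higher, and the median was -3.38, beside 0.306% apart and lower and 5.42% at least 2-fold lower over all probes. ACTN3, the alpha-actinin of fast fibres, lay between 10.35 and 14.69 in groups 3 and 4 (median 13.17) and between 15.38 and 17.79 in groups 1 and 2 (median 16.30), a difference of -3.43 ± 0.29. ATP2A1, the calcium pump of the fast sarcoplasmic reticulum, ran from 10.08 to 16.02 and from 16.48 to 17.97 (-4.07 ± 0.39). MYBPC2, fast myosin binding protein C, ran from 8.11 to 16.51 and from 16.52 to 18.07 (-4.73 ± 0.61). The 3 genes were uniformly bright in groups 1 and 2 and spread over many-fold in groups 3 and 4, where animal 49 was the highest for each of them, so that the gap of MYBPC2 was 0.02. Fast troponin C (TNNC2) differed by -3.57 ± 0.50 and overlapped through 3 arrays, tropomyosin 1 (TPM1) by -3.65 ± 0.48 with 1 array, animal 52, out of place. MYH1, the fast 2X myosin heavy chain, differed by -5.40 ± 0.78 at the probe with the larger difference and overlapped through 2 arrays, and by -3.29 ± 0.67 at the other. Fast myosins are near-identical copies, so these probes may not tell them apart. Also held together by animal 52 alone were SLN (-3.32 ± 0.32), sarcolipin, a small inhibitor of the calcium pump, and MYL11 (-2.97 ± 0.30), the fast regulatory light chain. PVALB, the calcium buffer of fast fibres, differed by -3.38 and overlapped through 5 arrays. MYL1 (0.00), MYOZ1 (-0.25) and CASQ1 (-0.72) stayed within 2-fold and MYH4 was higher (1.5), so the fast set did not move as a block.

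Slow-fibre genes differed less. Of 13 probes, none were apart, 4 were at least 2-fold higher and none lower, with a median of 0.47. Those 4 were CASQ2 (1.68), calsequestrin of slow and cardiac muscle, both probes of the slow calcium pump ATP2A2 (1.45 and 1.3), and the slow myosin MYH7B (1.09), each with overlapping ranges. Without the 11 arrays of low ZFY the count was 2, beside 997 of all 16354 probes. The main slow myosin MYH7 (0.31), slow troponin T (TNNT1, 0.56) and MYBPC1 (-0.07) stayed within 2-fold. CASQ2 spread from 4.45 to 11.41 within groups 1 and 2, where the cross-breed controls (10.22 to 11.41) were above all others. ATP2A2 at probe A_73_107013 split in the same way, with the cross-breed controls at 11.63 to 12.60. There the Holstein controls lay at 9.20 to 11.40 and the unknown animals of group 2 at 8.97 to 10.57.

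Some of the probes apart, of channels, receptors and their partners, are described here, picked after their values were seen. RYR3, a ryanodine receptor that releases calcium from the sarcoplasmic reticulum and is used mainly by young and by some slow muscles, ran from 6.71 to 9.42 (median 7.80) in groups 3 and 4. In groups 1 and 2 it ran from 1.45 to 5.25 (median 3.10), well above background on 6 of 23 arrays, a difference of 4.85 ± 0.29. A probe of LOC530893, described as a ryanodine receptor of the same kind, cleared the background on 19 of 20 arrays and on none of 23, and was at least 7.94-fold higher in groups 3 and 4. Both receptor probes thus pointed the same way. The chloride channel CLCN1, which keeps the resting muscle membrane quiet, was lower by 1.83 on the log2 scale (difference -1.83 ± 0.18). The inward rectifier potassium channel KCNJ12 ran from 12.45 to 13.45 against 13.81 to 14.78 (-1.43 ± 0.08). FGF13, a partner of sodium channels, differed by -1.95 ± 0.13. The ligand-gated ion channel P2RX4 went the other way and was higher in groups 3 and 4 (1.07 ± 0.10).

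Glycogen and glycolysis genes were lower in groups 3 and 4, and here the ranges of the list's mean did not overlap either. Of 16 probes, 4 were apart and lower and none apart and higher, 9 were at least 2-fold lower and none higher, with a median of -1.08, beside the same 0.306% and 5.42% over all probes. PHKA1, the muscle subunit of the kinase that switches on glycogen breakdown, ran from 11.06 to 12.72 (median 11.88) and from 13.51 to 15.16 (median 14.45), a difference of -2.40 ± 0.14. PFKM, muscle phosphofructokinase, which sets the pace of glycolysis, ran from 13.20 to 14.37 and from 14.63 to 15.73 (-1.08 ± 0.08). LDHA, the lactate dehydrogenase subunit of glycolytic tissue, ran from 13.61 to 15.37 and from 15.66 to 17.12 (-1.73 ± 0.13). Each of these 3 was lower in all label groups of groups 3 and 4. GAPDH, often used as a reference gene, was apart by 0.03 at probe A_73_100878 (-1.07 ± 0.10), overlapped through 1 array at A_73_105495 (-1.66 ± 0.16) and through 7 at A_73_100172 (-0.53 ± 0.09). Pyruvate kinase PKM (-2.17), the phosphorylase kinase subunit PHKG1 (-1.61), glycogen phosphorylase PYGM (-1.27) and PGAM2 (-1.25) overlapped through 2 to 7 arrays. Aldolase ALDOA differed by 0.01 ± 0.14. Without the 11 arrays of low ZFY, 9 of the 16 were apart and lower, beside 123 of all 16354 probes on the same arrays. Averaged over the 16 probes, an array's log2 signal was 14.18 to 15.16 in groups 3 and 4 and 15.58 to 16.36 in groups 1 and 2.

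Other enzymes among the probes apart were picked after their values were seen. LDHB, the lactate dehydrogenase subunit of oxidative tissue, went opposite to LDHA, at 16.40 to 17.39 in groups 3 and 4 against 14.18 to 16.32 in groups 1 and 2 (1.40 ± 0.15); it was the sole gene of the 96 with a saturated spot. AMPD1, muscle AMP deaminase, ran from 11.72 to 12.71 and from 13.49 to 15.05 (-2.06 ± 0.09). UGP2, which makes the sugar donor for glycogen, differed by -1.43 ± 0.10, and PPP1R3A, which brings a phosphatase to glycogen, by -1.41 ± 0.13. Higher in groups 3 and 4 was SIRT3, the mitochondrial deacetylase, at 14.31 to 14.95 against 12.22 to 13.55 (1.40 ± 0.06). The mitochondrial enzymes ECI1 (1.35 ± 0.08), of unsaturated fatty acid oxidation, PPA2 (1.09 ± 0.10), SUCLG2 (0.75 ± 0.08) and TXNRD2 (0.48 ± 0.06) were apart by 0.25 or less. PDK1, a kinase that shuts off pyruvate dehydrogenase, was higher by 0.85 ± 0.07 at A_73_120183 (a second probe differed by -0.03 and overlapped), and brain-type creatine kinase CKB by 2.35 ± 0.20.

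**Figure D4:**
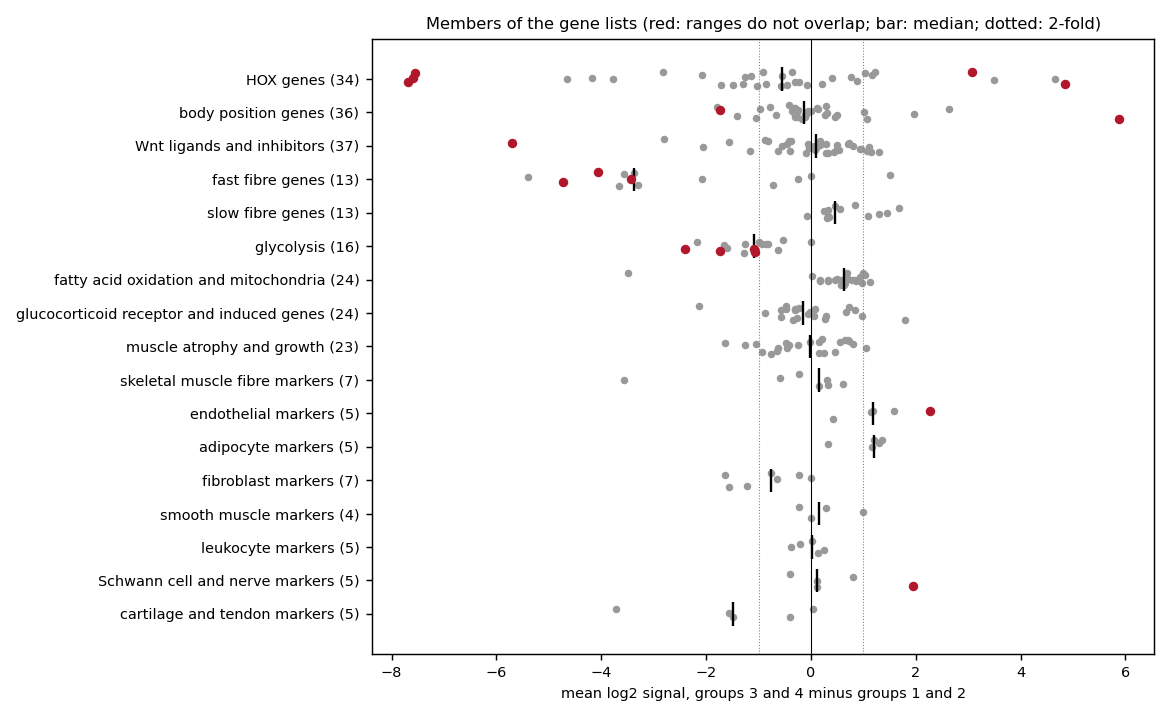
Each point is a probe of a gene list, placed by the difference of the mean log2 signals (x axis, groups 3 and 4 minus groups 1 and 2), with red for ranges that do not overlap, a bar for the median of the list and dotted lines at 2-fold; the number of probes is beside each name. The fast-fibre list (median -3.38) and the glycolysis list (median -1.08) lie to the left, the endothelial (1.18) and adipocyte (1.21) markers to the right, and the HOX genes spread to both sides.

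The list of fatty acid oxidation and mitochondrial genes held 24 probes, none apart, with a median of 0.64 and only CPT2 (1.14), the inner membrane carnitine transferase, and 1 of the HADHA probes (1.03) at least 2-fold higher. UCP3, an uncoupling protein of muscle mitochondria, was the exception, with a difference of -3.49 ± 0.39. Its means were 14.11 in the unknown animals of group 2 and 13.40 in the Holstein controls but 10.15 in the cross-breed controls, which overlapped with groups 3 and 4. UCP3 was higher than in the cross-breed controls by 3.25 ± 0.33 in the Holstein controls (limma, adjusted p = 5.89e-07) while the unknown animals of group 2 differed from them by 3.96 ± 0.35.

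Markers of other cell types moved with the sides in some cases. In whole muscle, fewer cells of a type and less RNA per cell cannot be told apart. VWF, a clotting protein that endothelial cells store, was found at 10.99 to 13.01 in groups 3 and 4 against 8.06 to 10.70 in groups 1 and 2 (2.28 ± 0.20). Of the 5 endothelial markers, 1 was apart and 4 were at least 2-fold higher (4.53% over all probes; with normexp 2), the others being KDR (1.58), TEK (1.18) and CDH5 (1.15), and PECAM1 differed by 0.42. The mean of the 5 was 9.80 to 11.12 per array in groups 3 and 4 and 8.41 to 9.87 in groups 1 and 2. Each of the 5 was well above background on all arrays. Without the 11 arrays of low ZFY 2 were at least 2-fold higher, beside 997 of all 16354 probes. S100B, a calcium-binding protein of Schwann cells that muscle and fat cells also make, ran from 11.46 to 13.43 and from 9.40 to 11.37 (1.96 ± 0.15), while the Schwann cell marker PMP22 (0.12 ± 0.18) stayed within 2-fold with wide overlap. Of the 5 probes of that list, S100B alone was apart and at least 2-fold higher, and the median was 0.12. Adipocyte markers had a median of 1.21, 4 of 5 at least 2-fold higher (LPL 1.35, FABP4 1.29, ADIPOQ 1.21, CIDEC 1.17; with normexp 1 of 5), none apart, and a mean per array of 7.41 to 11.83 against 4.88 to 10.08. Without animals 29, 39, 50, 52, 61, 76 and 79, that count was 2 of 5, beside 807 of all 16354 probes, and the median 0.94. These differences join unlike label groups of groups 1 and 2. FABP4 averaged 9.59 in the Holstein controls and 8.95 in the unknown animals, but 4.57 in the cross-breed controls. CIDEC averaged 9.09, 8.13 and 5.38 in the same order. ADIPOQ averaged 4.86 in the Holstein and 2.44 in the cross-breed controls, where no array was well above background. Of 7 fibroblast probes, none were apart and 3 were at least 2-fold lower, the collagens COL1A2 (-1.65), COL1A1 (-1.56) and COL3A1 (-1.23). COL3A1 was not lower in every label group. It averaged 9.93 in the suspected and 12.13 in the unknown animals of groups 3 and 4. In groups 1 and 2 it averaged 11.70 in the cross-breed controls, 13.21 in the Holstein controls and 13.37 in the unknown animals. Tendon and cartilage markers TNMD (-3.73 ± 0.74), ACAN (-1.57) and COMP (-1.49) were lower with overlap, 3 of 5 probes, but none of 5 were at least 2-fold lower with normexp (median -0.43). Of the 7 probes counted for 6 muscle fibre marker genes, none were apart and TNNC2 alone was at least 2-fold lower (median 0.16). That count missed a planned marker, MYLPF, which is named MYL11 here and differed by -2.97 ± 0.30. The 5 leukocyte markers (median 0.01), the 2 red cell probes (0.04) and the smooth muscle markers (median 0.15, 1 of 4 at least 2-fold higher) had none apart. The part of these cell types in the differences of the other genes was not tested.

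Glucocorticoids act through a nuclear receptor that switches on a known set of genes. Of 24 probes of the receptor and this set, none were apart (0.587% over all probes), 1 was at least 2-fold higher (4.53%) and 1 at least 2-fold lower (5.42%), and the median was -0.14, shares from which nothing is read. Without the 5 arrays of low spike-in signal, 1 was apart and lower, beside 69 of all 16354 probes. FKBP5, a chaperone partner of the receptor and a standard induced gene, ran from 9.91 to 13.47 and from 10.66 to 13.91 (-0.88 ± 0.31). TSC22D3 differed by -0.29, the receptor NR3C1 by -0.06 and PER1 by 0.05. GLUL, glutamine synthetase, ran from 9.66 to 12.11 and from 11.74 to 13.79 (-2.14 ± 0.17), and overlapped through 1 array. ANGPTL4, a lipase inhibitor, differed by 1.80 ± 0.52 and overlapped through 10. Its means were 11.43 in the Holstein controls and 11.76 in the unknown animals of group 2, but 7.29 in the cross-breed controls. Among 23 probes of muscle atrophy and growth, none were apart, 1 was at least 2-fold higher and 3 lower, with a median of -0.02 (0.11 without the 11 arrays of low ZFY). The ubiquitin ligase TRIM63 (-1.26 ± 0.17), a mark of muscle wasting, was lower with overlap and its partner FBXO32 differed by -0.02 ± 0.24. By the means of the sides, MYOD1 (-1.63), a myogenic factor, and myostatin (MSTN, -1.06) were lower and IGFBP3 (1.06) higher, all with overlap. MSTN averaged 7.66 in the cross-breed controls and 6.28 in the unknown animals of group 2. In the Holstein controls it averaged 3.60, with 3 of 13 arrays well above background, so its difference was not against all of groups 1 and 2 alike.

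Which animals set the limits was counted next. Over the 96 probes, the animal of groups 3 and 4 nearest to the other side was most often animal 29 (13 probes), 49 (12), 50 (10), 79 or 81 (9 each), and the suspected animals took this place at 7 probes (S54 3, S21 2, S56 1, S57 1). Several edges of animal 79 were at probes near background in groups 3 and 4, among them HOXA9, PAK6, CBLN4, ATP2B2 and ST8SIA2. Levels there have no order, so its count is uncertain. In groups 1 and 2 the nearest animal was most often K12 (12), 265 (11) or C41 (8). No single array held most of the edges on either side. By label group, the mean nearest to the other side was that of the unknown animals of group 4 at 40 probes, of the unknown animals of group 3 at 33 and of the suspected animals at 23. In groups 1 and 2 it was that of the cross-breed controls at 35, the Holstein controls at 32 and the unknown animals of group 2 at 29. The 5 unknown animals of group 2 thus did not lie in between by this measure, although they did for HOXC6 and HOXC8. Among the probes held together by a single array, animal 29 was that array at 7, animal 52 at 6 and K12 at 5. Those with the largest differences upwards, beside HOXC8 and TBX3, were HS3ST2 (4.0 ± 0.36), RBFOX3 (3.30 ± 0.31) and COL23A1 (2.55 ± 0.20), with animals 36, 61 and C21 out of place.

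Among label groups within a side, only the 2 sets of controls were formed without the plot of components, and the p-values of their contrast measure the spread between animals. The unknown animals were placed on a side by these same expression values, so their contrasts are no test: counts of probes past the limits of the fit and differences describe the animals chosen, and no p-value is given for a gene. Set against the 5 cross-breed controls, the 13 Holstein controls differed by the limma fit at 20.6% of all probes (8.51% with normexp) and at 14 of the 96 (14.6%). In this contrast breed and batch cannot be told apart, because no slide, scan day or scanner was shared. Among those called, beside MEIS2 and HOXC6, was SH3KBP1 (1.09 ± 0.26, limma, adjusted p = 0.00210). RYR3 was called too, but it was well above background on 1 of 13 Holstein and 4 of 5 cross-breed arrays, and with normexp the call was lost (difference -0.08 ± 0.13, limma, adjusted p = 0.637). For the 5 unknown animals of group 2 against the cross-breed controls, the share past the same limits was 21.7% of all probes (9.96% with normexp) and 25% of the 96 (24). These groups also shared no slide, scan day or scanner. ZFY was at 2.90 to 4.53 in the 5 unknown animals and at 5.47 to 6.93 in the cross-breed controls. Origin, batch and what the ZFY signal reflects cannot be told apart in this contrast. BTBD11 differed by 2.90 ± 0.34 and ACTN3 by 1.37 ± 0.20. VWF differed by -1.29 ± 0.22 and the desaturase SCD5 by -2.19 ± 0.27. Between the 4 suspected and the 16 unknown animals of groups 3 and 4, the limma fit put 0.141% of all probes (23; 0.0306% with normexp) past these limits and none of the 96. An unadjusted p under 0.05 was found for 5 of the 96 and for 2836 of all 16354 probes. Of the 23, 22 were lower in the suspected animals, among them the collagen COL3A1 (-2.20 ± 0.42). The count of 23 fell to between 0 and 4 when any single suspected animal was left out, and was 0 within the slides that held both labels. A call that was missed does not show that the suspected and the unknown animals had the same levels.

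Within the shared scan day, where animals 36 and 58 stood against the 5 unknown animals of group 2, the 96 probes must keep their direction, since no array of either side crosses, so only the sizes are given. Their median difference was 1.95 for the 46 higher probes and -2.49 for the 50 lower, and on the shared slide 2.04 and -2.43. HOXA10 cleared the background on none of the 2 arrays against all 5 that day, so no size is given for it. MEIS2 differed by 4.83 within the scan day, FRZB by -5.32, ACTN3 by -3.58, VWF by 3.10 and LDHA by -1.05. HOXC6 (2.68) and HOXC8 (1.69) differed by less than over all arrays. HOXA11 was well above background on 1 of these 7 arrays and HOXA13 on none, so no order is read for them on this day, on which no control was scanned. HOXB4 (-1.0), HOXC10 (0.68), COMP (3.42, dim on 4 of the 5 group 2 animals), ACAN (0.01), CIDEC (-0.36) and FABP4 (-0.10) had the opposite sign there.

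**Figure D5:**
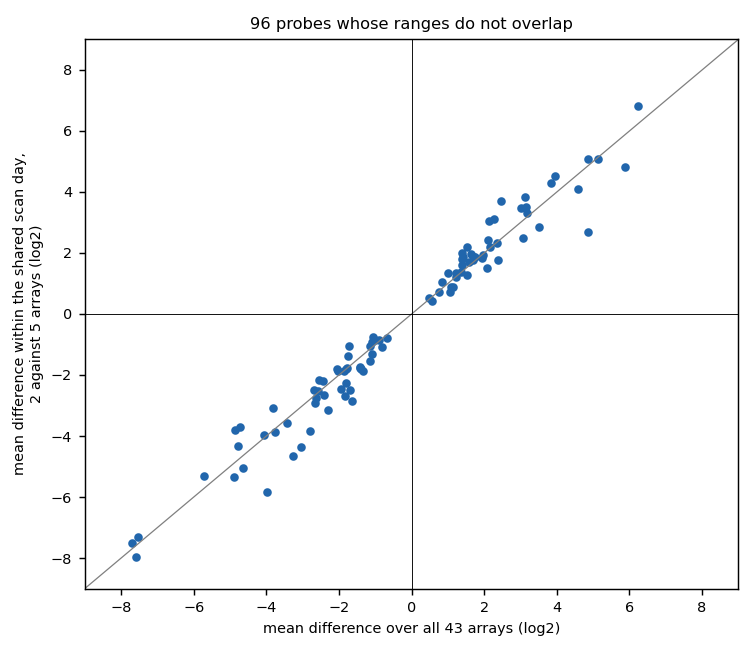
For the 96 probes whose ranges do not overlap, the difference of mean log2 signals over all 43 arrays (x axis) is set against that within the shared scan day, 2 against 5 arrays (y axis), with a line of equality. The signs are fixed by the choice of probes without overlap, and the medians within the day are 1.95 and -2.49.

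On the components themselves, taken over the 16354 probes, the sides overlapped along each axis. Component 2 (20.4% of the variance) ran from -31.1 (animal 29) to 65.1 (S56) in groups 3 and 4 and from -119.2 (C20) to 25.5 (K12) in groups 1 and 2. Animals 29 and 58 were the only ones of groups 3 and 4 under 0. Animal 76 of group 4 lay at 32.7 on component 1 and 46.4 on component 2, within the scores of group 3. The other animals of group 4 lay at -20.5 (58) to -78.8 (51) on component 1. The ZFY signal of animal 76 (5.58) was also within the range of group 3. Values of group 4 thus include an array that lay with group 3 here.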

How the data were processed

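RNA of 1 biceps brachii sample per animal was hybridised to a 1-colour bovine 44K array. The deposited scanner files hold signal intensities that the authors extracted and background-subtracted with Agilent Feature Extraction; the deposited value table holds linear intensities normalized by the authors between arrays, with a median per array of 6.44 to 8.24 after log2, whose centring is not stated. Log2 values of the deposited processed signal were normalized here by cyclic loess over all 43 arrays, as the study's methods name, with limma 3.58.1 in R 4.3.3. Outlier spots (0.110%) were left out, spots of a probe were averaged, and probes under 4 on at least 30 arrays were removed. Of 21475 gene probes, 17406 had a symbol from the files or from RefSeq's gene table, used for names alone; the files paired no probe with a sequence that was used here.

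Sides followed the study's plot of principal components; labels gave the groups within them. The members and gene lists were chosen with earlier results of these data known. Differences between sides are means, ranges and counts without a test; label contrasts within a side used lmFit and eBayes, with those of unknown animals, who were placed on the same values, given as a description without a p for any gene, called at a Benjamini-Hochberg adjusted p under 0.05 over all 16354 probes and at least 2-fold. Named were the 15 widest gaps in each direction among probes well above background throughout the brighter side, HOX and position probes, the members apart and up to 4 others of each further list, and the 5 largest differences each way among probes overlapping through 1 array; other genes in the text were picked after their values were seen. A bound ("at least N-fold") sets the bright side's mean against the higher, per array, of the dim probe's signal and the lowest signal well above background. The fit was tested on simulated data. Alternatives were other normalizations and background corrections, the authors' table, other filters on dim probes, slide as a block, and subsets of arrays. Some genes that this rule names are not reported here.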

Additional observations from a re-analysis of the deposited data

Results flagged for a closer look

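Among 93 sets of 4 or 5 arrays looked at, 1 array stood far from the rest of its label group in 9, where chance gives about 1 in 20. In the suspected animals it was S54 both times, at 13.73 for RCAN2 (probe A_73_107394, the others 13.11 to 13.21) and at 8.46 for RYR3 (the others 7.68 to 7.75). In the unknown animals of group 2 it was animal 266 at 3.95 for RYR3 (the others 1.51 to 1.90), at 11.51 for FRZB (10.51 to 10.69) and at 5.33 for FOXG1B (1.21 to 1.57). RYR3 and FOXG1B were each well above background on 1 of these 5 arrays. The narrow range of the others is therefore background, and the place of these sets among the 9 is uncertain. Animal 263 was low for GRB14 (3.83, the others 4.51 to 4.77) and animal 265 for PHKA1 (13.51, the nearest other 14.60). Among the cross-breed controls K10 stood apart for SH3KBP1 (8.32, the others 7.75 to 7.82) and for VWF (9.71, the others 10.45 to 10.70).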

How the results depend on the processing

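The 96 probes with ranges that do not overlap became 73 to 100 under quantile normalization, 75th percentile scaling, cyclic loess on pairs, normexp and the authors' table, of which 62 to 91 were among the 96, but 22 with no normalization. It was 89 with a filter on bright probes and 96 with none. Leaving out arrays can only add probes: 358 without the Holstein controls, 124 without the 5 arrays of low spike-in signal, 1635 for suspected animals against controls alone, 11681 within the shared slide and 5336 within the shared scan day. Chosen after seeing the data, it was 103 without animals 50 and 79, 133 without those and the 5 low spike-in arrays, and 245 without the 11 animals of low ZFY. The median over all probes moved from -0.03 to 0.08 under 75th percentile scaling and -0.17 under loess on pairs.

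Under the other normalizations, normexp and the authors' table, none of 161 followed probes at least 2-fold different turned sign, and 40 of 93 with smaller differences did. Medians of lists that turned sign were those of the Wnt (-0.03), glucocorticoid (0.01), muscle fibre (-0.26), leukocyte (-0.40) and red cell probes (-0.52) with loess on pairs, of the atrophy probes with normexp (0.097), quantile normalization (0.041) and 75th percentile scaling (0.098), of the body position probes with that scaling (0.0039), of the muscle fibre probes with quantile (-0.0097) and no normalization (-0.084), of the smooth muscle probes with no normalization (-0.015) and of the Schwann cell probes with the authors' table (-0.07). Differences that turned sign, on the shared slide and then the scan day, were ACAN (0.0138, 0.0142), BARX1 (-0.586, -1.004), COMP (4.15, 3.42), HOXB4 (-1.03, -1.0014), ZIC2 (0.181, 0.0475), CIDEC (-0.246, -0.361), HOXA11 (1.63, 0.611) and HOXA13 (0.499, 0.542); HOXA11, HOXA13, ZIC2 and BARX1 were near background on most of these arrays, so no order is read from theirs. On the slide alone it was TNMD (0.164), on the scan day alone HOXC10 (0.683), BARX2 (0.0461) and FABP4 (-0.103), and without the Holstein controls BARX1 (-0.138). The cause was not tested.

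Holstein against cross-breed controls gave 3361 calls, 1391 with normexp and 3155 to 3302 without 1 cross-breed animal. The unknown animals of group 2 against cross-breed controls gave 3550, 1629 with normexp and 3429 to 3604 without 1 animal. The contrast of suspected against unknown animals within groups 3 and 4 gave 23 calls, but 4 under 75th percentile scaling, 52 with loess on pairs, 5 with normexp, 214 with all 43 arrays in 1 fit, 0 within shared slides and 0 to 4 without 1 suspected animal. Under 75th percentile scaling the calls higher in Holstein were 1299 of 3722 (1777 of 3361 otherwise), and in the unknown animals of group 2 1975 of 3683 (1610 of 3550). For 18 calls on probes apart between the sides, 273 of 289 alternatives kept the call and none reversed it. No paired analysis was possible because the replicate numbers only name samples. Dim probes, near background on a side, carry a bound there and not a level.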
